A study of Mus musculus with 12 samples.

Results

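The genes described here make, carry and break down the monoamines dopamine, noradrenaline and serotonin. Members were the probe sets whose only symbol in the platform annotation was Th, Ddc, Slc6a2, Slc6a3, Slc6a4, Slc18a2, Slc22a3, Maoa or Maob. Of these 9 genes 8 were matched, each by 1 probe set, out of 19938 genes with a symbol of their own, and Slc22a3 was not analysed here. RNA of the anterior striatum was measured in adolescent mice, males of the outbred Swiss CD-1 stock, with 12 arrays in 4 treatment groups of 3. The groups received saline, ethanol, mephedrone, or mephedrone with ethanol (called the combination) during a conditioned place preference procedure of 10 days, which tests how rewarding a drug is by the place an animal comes to prefer. Drugs were given 15 minutes before the animal entered the compartment paired with them, and all groups went through the same procedure. The labels give no dose and do not say whether an array holds RNA of 1 animal, so that p-values reflect how far these samples spread, which may be technical only.

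Tyrosine hydroxylase (Th) starts catecholamine synthesis and aromatic amino acid decarboxylase (Ddc) ends the synthesis of both dopamine and serotonin. The vesicular transporter VMAT2 (Slc18a2) packs monoamines into vesicles. The plasma membrane transporters of noradrenaline (Slc6a2), dopamine (Slc6a3) and serotonin (Slc6a4) take them back up after release, and monoamine oxidases A and B (Maoa, Maob) break them down. Mephedrone is a synthetic cathinone, a stimulant that acts on the plasma membrane transporters and makes them release monoamines. The neurons that use these transmitters have their cell bodies in the midbrain and brainstem and send axons to the forebrain, and the mRNAs of Th, Slc6a2, Slc6a3 and Slc6a4 are known chiefly from those cell bodies. Monoamine oxidases are also made by local cells, Maob by astrocytes among them.

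The promoters of Th and Slc18a2 are shown because these genes stand for synthesis and storage and because both hold a full cAMP response element, the site through which CREB acts, and that of Maoa because this gene had the smallest p-value among the members. Each sequence, from RefSeq on GRCm38.p6, runs from 250 bases before to 10 bases after the annotated start. Capitals mark TGACGTCA in Th and Slc18a2, and GGGCGG on the opposite strand, the GC box, in Maoa.
Th, chr7:142899986-142900245, minus strand: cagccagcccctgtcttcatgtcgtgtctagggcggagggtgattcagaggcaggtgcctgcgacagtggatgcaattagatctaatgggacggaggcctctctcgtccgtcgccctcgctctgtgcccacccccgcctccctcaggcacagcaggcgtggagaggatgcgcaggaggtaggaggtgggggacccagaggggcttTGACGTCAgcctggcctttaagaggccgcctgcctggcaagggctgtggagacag
Slc18a2, chr19:59260628-59260887, plus strand: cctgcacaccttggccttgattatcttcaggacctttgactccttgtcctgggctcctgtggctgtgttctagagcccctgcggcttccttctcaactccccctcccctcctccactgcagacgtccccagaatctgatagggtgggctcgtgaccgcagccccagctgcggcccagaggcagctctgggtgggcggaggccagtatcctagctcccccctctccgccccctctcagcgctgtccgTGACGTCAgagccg
Maoa, chrX:16619448-16619707, plus strand: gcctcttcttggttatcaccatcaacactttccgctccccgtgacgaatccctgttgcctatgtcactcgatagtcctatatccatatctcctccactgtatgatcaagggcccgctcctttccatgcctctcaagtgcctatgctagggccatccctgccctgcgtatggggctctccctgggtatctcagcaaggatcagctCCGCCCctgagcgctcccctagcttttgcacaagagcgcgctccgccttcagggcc
TGACGTCA was searched on both strands, which read alike, and GGGCGG on both strands, in windows from 250 bases before to 50 after each start. TGACGTCA was present in 588 of 32851 windows (1.79%). Its first base lay 45 bases before the start of Th and 4 bases before that of Slc18a2. GGGCGG was present in 35.7% of windows, and in those of Th, Slc6a3, Slc6a4, Slc18a2 and Maoa among the 7 listed genes that had a window. A match describes these letters and not a site in use.

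Values are log2 signals minus the median of the 12 arrays, so they show differences between arrays and not levels. A coarse level could still be read from the rounding of the deposited numbers. The values of Th, Maoa and Maob stepped as numbers between 8 and 16 on the log2 scale do, on every array. Those of Ddc, Slc6a2, Slc6a3, Slc6a4 and Slc18a2 stepped as numbers between 4 and 8 do, on at least 1 array. Of all 28853 probe sets 53.4% did the same as this second set. Background can shrink the differences of probe sets with low signal. All 8 measured markers of striatal projection neurons (Ppp1r1b, Rgs9, Adcy5, Pde10a, Bcl11b, Gng7, Rasd2 and Foxp1) lay between 8 and 16 on every array. So did 46.5% of all probe sets and 4 of 11 measured midbrain dopamine neuron markers (Nr4a2, Pitx3, Lmx1b and Slc10a4). This coarse range does not by itself show that a gene was expressed in the striatum.

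The arrays differed in markers of other tissue. The mean over 13 of 15 choroid plexus markers, the secretory tissue of the brain ventricles, reached 1.66 in combination replicate 3 and 0.86 in saline replicate 2. It reached 0.63 in ethanol replicate 1, 0.44 in mephedrone replicate 1 and 0.45 in combination replicate 2, and the remaining arrays held values from -0.15 to -0.041. Summed over the list the range was -1.43 to 11.2 for saline, -1.10 to 8.23 for ethanol, -1.96 to 5.70 for mephedrone and -0.53 to 21.5 for the combination. Combination replicate 3 also had a mean of 0.80 over 8 of 9 cortical excitatory neuron markers, 0.49 over 8 of 9 oligodendrocyte markers, 0.28 over 10 of 10 astrocyte markers and -0.33 over 8 of 9 striatal projection neuron markers. The cortical mean varied within the other groups too. It ranged from -0.43 to 0.39 for saline, -0.52 to 0.20 for ethanol and -0.091 to 0.41 for mephedrone. The striatal projection neuron mean was below 0 in all 3 combination arrays (-0.025, -0.023 and -0.33), which lay below every saline and every mephedrone array. Summed over that list the range was -2.64 to -0.19 for the combination, 0.11 to 0.28 for saline, 0.012 to 0.12 for mephedrone and -1.34 to 0.73 for ethanol. The part of this in the combination's results was not tested. The centred values cannot show which markers were absent. In such tissue samples, fewer cells of a type and less RNA per cell cannot be told apart.

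No member passed in any comparison, with 1 value per gene in limma, a moderated test across all genes, and Benjamini-Hochberg adjustment over 19938 genes at a threshold of 0.05. The comparison of the 6 mephedrone and combination arrays with the 6 saline and ethanol arrays had the most calls over all genes (23 genes, percent called 0.115). At an unadjusted p under 0.05 in limma 2 of 8 members, Maoa and Ddc, were higher there, against 8.36% of all genes, and none was lower, against 4.28%. The members' median difference was 0.052 against 0.0038 over all genes, and 5 of 8 were above 0 against 53.2%. For the combination against saline 0 of 8 members passed (all genes 0.01%), and 2, again Maoa and Ddc, were higher at an unadjusted p under 0.05 against 8.88%. The combination minus ethanol had 0 of 8 passing (all genes 0.0251%) and 1, Maoa, was higher at an unadjusted p under 0.05 against 5.31%. For ethanol against saline, mephedrone against saline, mephedrone against ethanol and the combination against mephedrone 0 members and 0 genes passed, and no member had an unadjusted p under 0.05, against 4.98%, 7.23%, 6.28% and 3.31% of all genes. Over the arrays given ethanol against those not, 0 genes passed. There 1 member, Slc6a2, was lower at an unadjusted p under 0.05, against 1.13% of all genes, and 0 were higher, against 3.44%. The interaction, the ethanol difference with mephedrone minus that without it, gave 0 genes passed and 0 members at an unadjusted p under 0.05, against 3.54%. A moderated F test for any difference among the 4 groups called 0 members (all genes 0.00502%), and Maoa and Ddc had an unadjusted p under 0.05 against 8.35%. Members above 0 numbered 7 of 8 for ethanol given against not given (median 0.042, against 58.8% of all genes), 7 of 8 for ethanol against saline (median 0.046, against 58.9%) and 7 of 8 for mephedrone against saline (median 0.060, against 56%). For the combination against saline they numbered 6 of 8 (median 0.094, against 57%). These comparisons share arrays and are not independent.

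**Figure D1:**
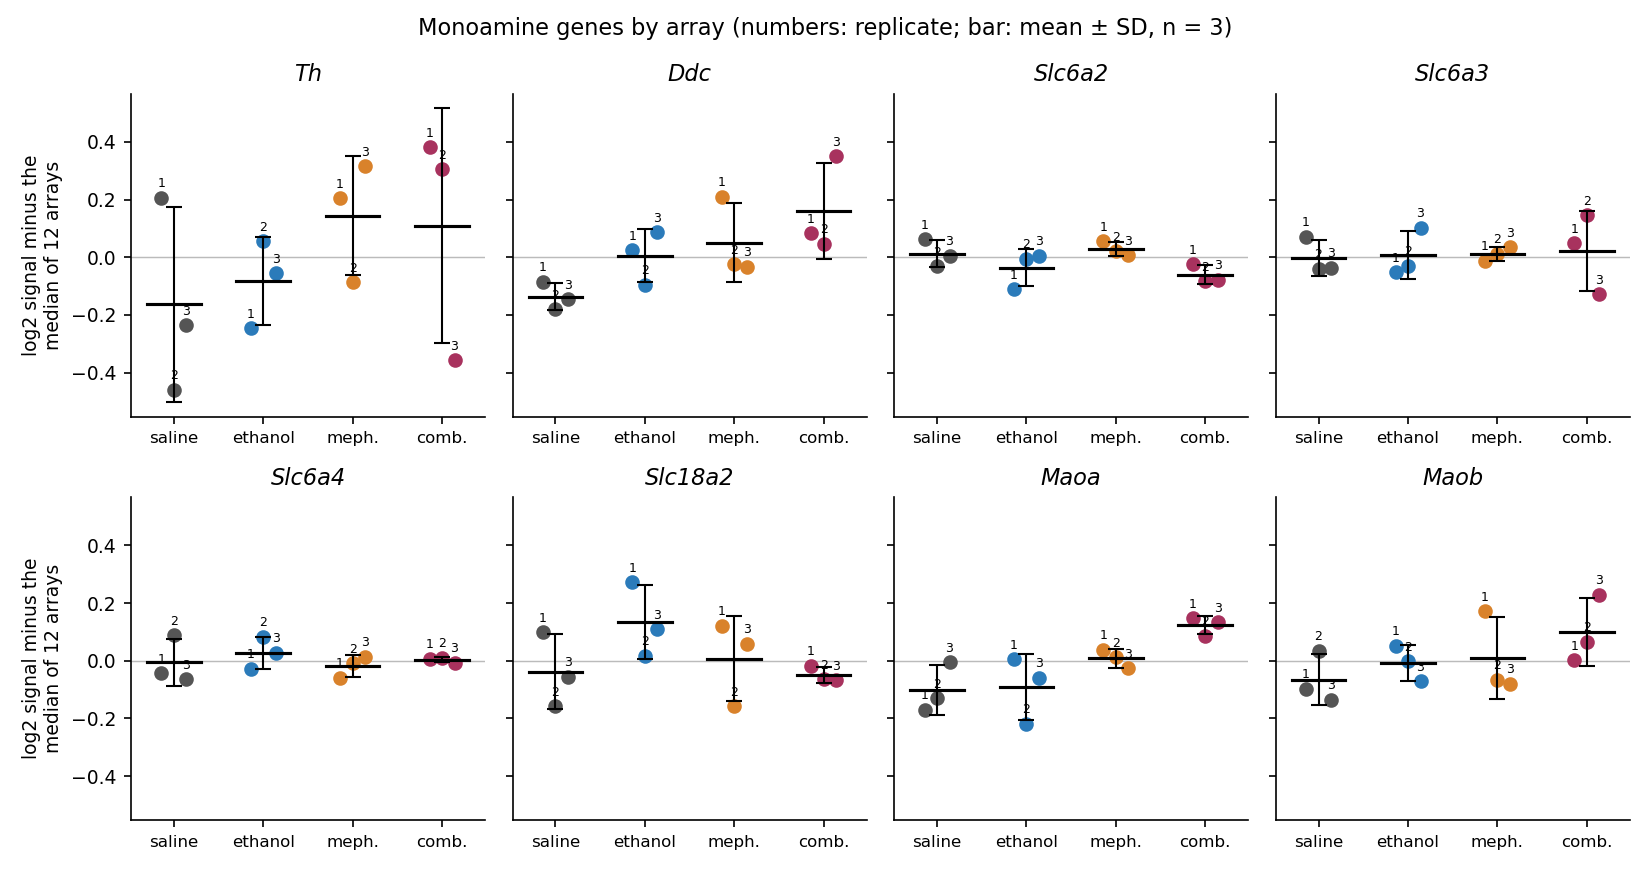
Log2 signal minus the median of the 12 arrays (vertical axis) for the 8 measured genes in the 4 treatment groups (meph., mephedrone; comb., combination). Points are arrays with their replicate number, and bars are the mean ± SD of 3 arrays. Maoa lies between 0.087 and 0.15 in all 3 combination arrays, while Th spans -0.36 to 0.38 within that group.

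Synthesis came first in the pathway and held the member with the widest spread. Th, in replicate order, was 0.21, -0.46 and -0.24 with saline and -0.25, 0.055 and -0.055 with ethanol. It was 0.20, -0.086 and 0.32 in the mephedrone arrays and 0.38, 0.31 and -0.36 in the combination arrays. Every group overlapped every other, and both the highest value of Th and the next to lowest were combination arrays, while saline replicate 2 was the lowest. The range of 0.84 was wider than that of 98.3% of all genes, whose median range was 0.23. Group means of Th were -0.16 ± 0.34 (SD, n = 3) for saline, -0.082 ± 0.15 for ethanol, 0.14 ± 0.21 for mephedrone and 0.11 ± 0.41 for the combination. In limma the arrays given mephedrone differed from the others by 0.25 in log2 (SE 0.144, 95% interval -0.065 to 0.56, adjusted p = 0.517). Without combination replicate 3 the difference in Th was 0.37 (SE 0.113, adjusted p = 0.187), and for the combination against saline it went from 0.27 to 0.51 (SE 0.169, adjusted p = 0.361). Without saline replicate 2 the latter was 0.12. Combination replicate 3 and saline replicate 2 were the arrays with the most choroid plexus signal, whose part in the result was not tested.

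Ddc, in replicate order, was -0.085, -0.18 and -0.15 with saline and 0.024, -0.095 and 0.087 with ethanol. It was 0.21, -0.024 and -0.033 in the mephedrone arrays and 0.083, 0.047 and 0.35 in the combination arrays. The 3 saline arrays of Ddc were the lowest but for ethanol replicate 2, which lay between them, and no saline array reached any mephedrone or combination array. Such separation from saline was found for 9.99% of all genes as higher with mephedrone and for 11.7% with the combination. Group means of Ddc were -0.14 ± 0.048 (SD, n = 3) for saline, 0.0057 ± 0.092 for ethanol, 0.051 ± 0.14 for mephedrone and 0.16 ± 0.17 for the combination. The combination was higher than saline by 0.30 (SE 0.0862, 1.23-fold, adjusted p = 0.222 in limma), which did not pass. The arrays given mephedrone were higher by 0.17 (SE 0.0609, 95% interval 0.038 to 0.30, adjusted p = 0.261). Combination replicate 3, the array with the most choroid plexus, oligodendrocyte and astrocyte signal, also had the highest Ddc. Without it the combination differed from saline in Ddc by 0.20 (SE 0.0748, adjusted p = 0.417 in limma). Midbrain dopamine neuron markers, 11 of 12 measured, followed Ddc in part. Summed over the list they ranged from -1.06 to -0.25 for saline, -0.57 to 0.64 for ethanol, -0.19 to 0.32 for mephedrone and 0.28 to 1.73 for the combination, so that saline lay below both groups given mephedrone, as for Ddc. Their mean was also lowest in saline replicate 2 (-0.096) and highest in combination replicate 3 (0.16). In the latter array Aldh1a1, which belongs to the list, was 0.83, while Th was -0.36 and Slc6a3 was -0.13. Within the mephedrone group, replicate 1 had the highest Ddc (0.21) and the lowest marker mean (-0.017). The part of these cell types in the result was not tested. Saline replicate 2 had the lowest Ddc with the second highest choroid plexus mean.

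**Figure D2:**
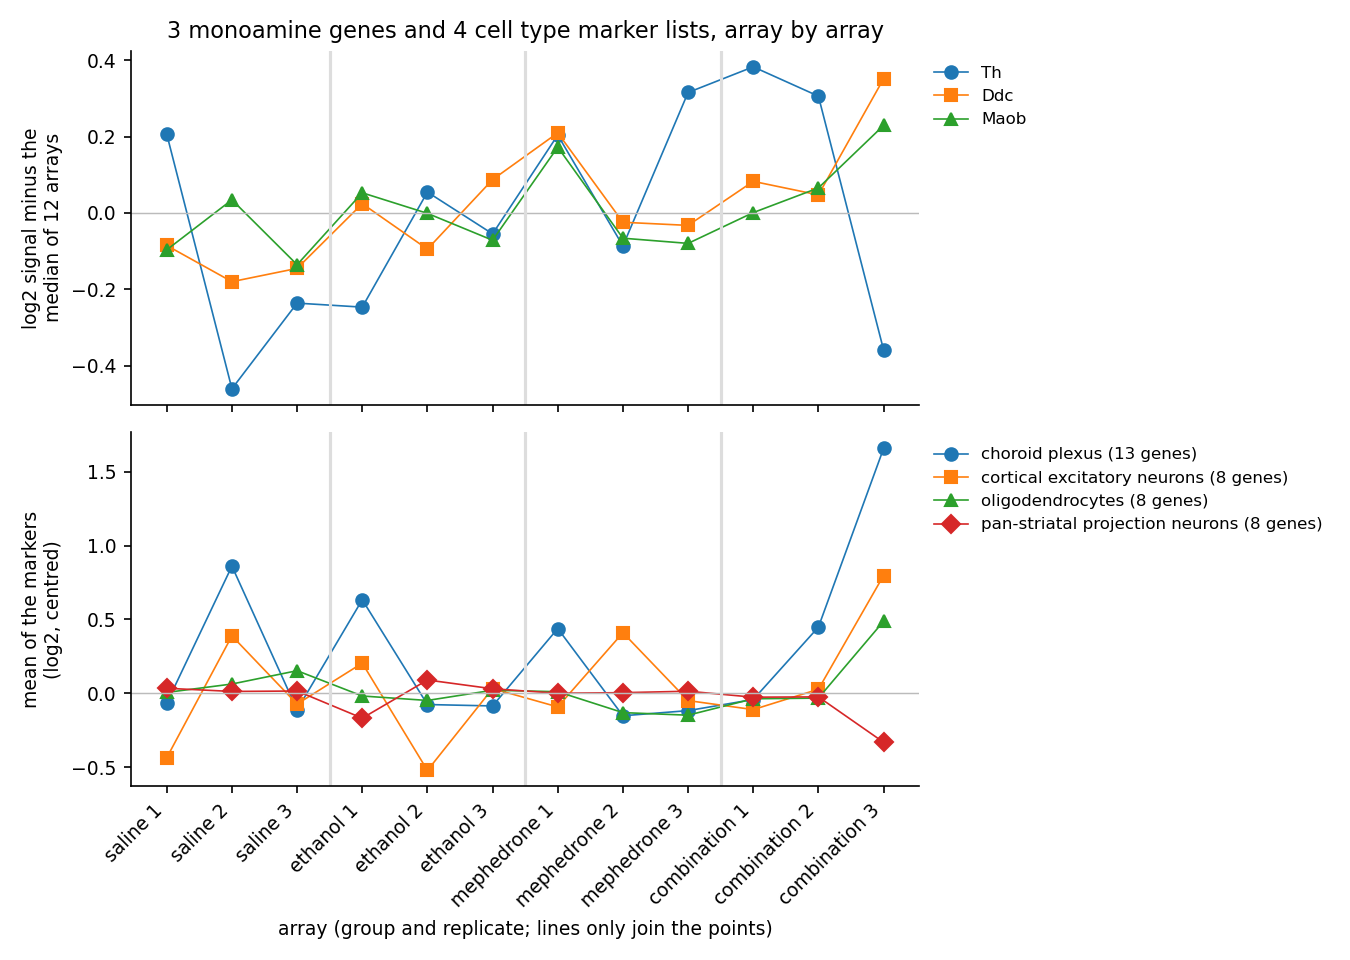
Upper panel, log2 signal minus the median of the 12 arrays for Th, Ddc and Maob. Lower panel, the mean of the same quantity over 4 marker lists. The horizontal axis gives the arrays by group and replicate, and lines only join points. Combination replicate 3 is highest for Ddc (0.35), Maob (0.23) and the choroid plexus markers (1.66) and is among the low arrays for Th (-0.36).

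Slc18a2, the vesicular transporter, was 0.099, -0.16 and -0.055 with saline and 0.27, 0.018 and 0.11 with ethanol, in replicate order. It was 0.12, -0.16 and 0.060 in the mephedrone arrays and -0.018, -0.064 and -0.068 in the combination arrays. All 3 ethanol arrays of Slc18a2 lay above all 3 combination arrays, and 6.78% of all genes were lower in the combination without overlap. Its group means were -0.038 ± 0.13 (SD, n = 3) for saline, 0.13 ± 0.13 for ethanol, 0.0077 ± 0.15 for mephedrone and -0.050 ± 0.028 for the combination. The combination minus ethanol was -0.18 (SE 0.0850, adjusted p = 0.520 in limma) and ethanol minus saline 0.17 (SE 0.0850, adjusted p = 1). Neither passed. Ethanol replicate 1 held the highest Slc18a2, and without it the former was -0.11 (SE 0.0864) and the latter 0.10. That array had a choroid plexus mean of 0.63, an olfactory bulb marker mean of 0.21 over 9 of 9 genes and a striatal projection neuron mean of -0.17, whose part was not tested.

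The 3 plasma membrane transporters, on which cathinones act, had the narrowest ranges of the members. All 3 stepped as numbers between 4 and 8 do on at least 1 array, and background can shrink differences at low signal. Slc6a3, the dopamine transporter, was 0.071, -0.039 and -0.037 with saline and -0.053, -0.030 and 0.10 with ethanol, in replicate order. It was -0.013, 0.013 and 0.034 in the mephedrone arrays and 0.048, 0.15 and -0.13 in the combination arrays. The groups overlapped, and the highest and the lowest Slc6a3 were both combination arrays. The means of Slc6a3 were -0.0017 ± 0.063 (SD, n = 3) for saline, 0.0064 ± 0.083 for ethanol, 0.011 ± 0.023 for mephedrone and 0.022 ± 0.14 for the combination. The arrays given mephedrone differed in Slc6a3 from the others by 0.015 (SE 0.0465, 95% interval -0.087 to 0.12, adjusted p = 0.943 in limma), an interval of 0.941-fold to 1.08-fold.

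Slc6a4, the serotonin transporter, was -0.043, 0.089 and -0.064 with saline and -0.028, 0.084 and 0.027 with ethanol, in replicate order. It was -0.058, -0.0089 and 0.014 in the mephedrone arrays and 0.0070, 0.011 and -0.0070 in the combination arrays. The groups overlapped, and saline held both the highest and the lowest Slc6a4. Its means were -0.0059 ± 0.083 (SD, n = 3), 0.028 ± 0.056, -0.018 ± 0.037 and 0.0035 ± 0.0093 in the order saline, ethanol, mephedrone and combination. The mephedrone difference in Slc6a4 was -0.018 (SE 0.0322, 95% interval -0.089 to 0.052, adjusted p = 0.881 in limma). Its range of 0.15 was wider than that of 18.2% of all genes.

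Slc6a2, the noradrenaline transporter, was 0.062, -0.031 and 0.0050 with saline and -0.11, -0.0050 and 0.0055 with ethanol, in replicate order. It was 0.055, 0.022 and 0.0076 in the mephedrone arrays and -0.023, -0.082 and -0.078 in the combination arrays. All 3 combination arrays of Slc6a2 lay below all 3 mephedrone arrays, as 4.50% of all genes did, and all 3 mephedrone arrays above all 3 ethanol arrays, as 5.56% did. Its means were 0.012 ± 0.047 (SD, n = 3) for saline, -0.037 ± 0.064 for ethanol, 0.028 ± 0.025 for mephedrone and -0.061 ± 0.033 for the combination. The 6 arrays given ethanol were lower in Slc6a2 than the 6 without it by a log2 difference of -0.069 (SE 0.0290, 95% interval -0.13 to -0.0056, adjusted p = 0.941 in limma), which did not pass. The mephedrone difference in Slc6a2 was -0.0041 (SE 0.0290, 95% interval -0.068 to 0.059, adjusted p = 0.976).

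**Figure D3:**
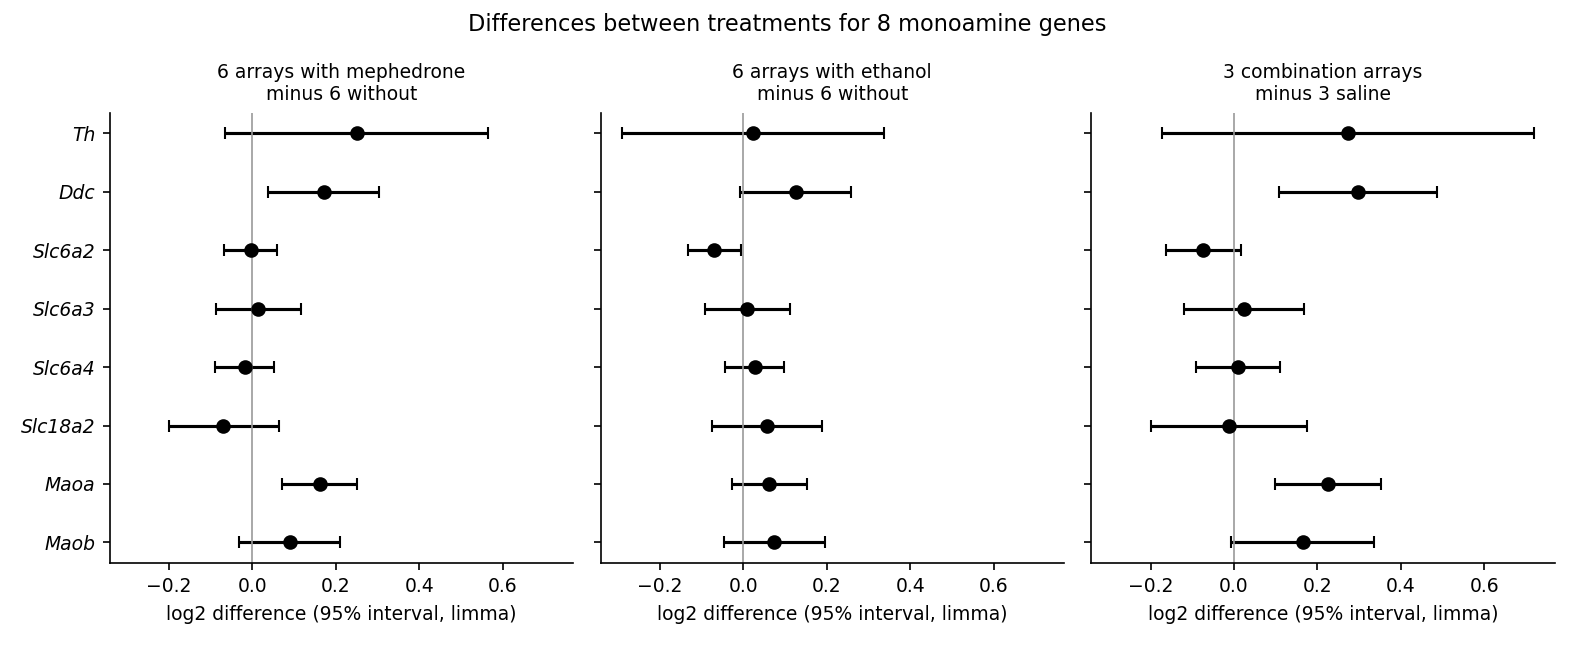
Log2 difference (horizontal axis) with its 95% interval from limma for the 8 genes, for the 6 arrays given mephedrone against the 6 without, the 6 given ethanol against the 6 without, and the 3 combination arrays against the 3 saline arrays. The intervals for Slc6a2, Slc6a3 and Slc6a4 lie within -0.089 to 0.12 for mephedrone, and those for Maoa (0.072 to 0.25) and Ddc (0.038 to 0.30) lie above 0 before adjustment.

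Breakdown held the member nearest to the threshold. Maoa, in replicate order, was -0.17, -0.13 and -0.0050 with saline and 0.0050, -0.22 and -0.059 with ethanol. It was 0.039, 0.012 and -0.025 in the mephedrone arrays and 0.15, 0.087 and 0.13 in the combination arrays. All 3 combination arrays lay above the other 9, and the mephedrone arrays overlapped those of saline and ethanol. Without overlap 11.7%, 6.44% and 4.88% of all genes were higher in the combination than in saline, ethanol and mephedrone, each group taken alone. The share with all 3 combination arrays above the other 9 at once was not counted. Group means of Maoa were -0.10 ± 0.086 (SD, n = 3) for saline, -0.090 ± 0.11 for ethanol, 0.0084 ± 0.032 for mephedrone and 0.12 ± 0.032 for the combination. The arrays given mephedrone were higher by 0.16 (SE 0.0411, 1.12-fold, 95% interval 0.072 to 0.25, unadjusted p = 0.00218, adjusted p = 0.128 in limma). Maoa ranked 331 among all genes by p in that comparison and did not pass. With array quality weights, which give arrays of wide spread less weight, the difference was 0.16 (SE 0.0371, adjusted p = 0.0486) and passed, the 1 call of any member under any setting. Under those weights 356 of all genes passed (1.79%), against 23 with equal weights. The combination was higher in Maoa than saline by 0.22 (SE 0.0582, adjusted p = 0.183), than ethanol by 0.21 (SE 0.0582, adjusted p = 0.303) and than mephedrone by 0.11 (SE 0.0582, adjusted p = 0.992). Without combination replicate 3 the first of these was 0.22 (SE 0.0668, adjusted p = 0.312), about as large. Markers of ependyma, the ciliated lining of the ventricles, separated the combination from the other 9 arrays, as Maoa did. Their mean over 7 of 7 genes was 0.083, 0.096 and 0.12 in the combination arrays and at most 0.061 in the other 9. Of all the marker lists read, only this list did so, and the share of genes or lists that would do so was not counted. The value of 0.061 was that of saline replicate 2, where Maoa was -0.13. Combination replicate 1 had the highest Maoa but the lowest ependyma mean of its group. All 7 markers stepped as numbers below 8 do on at least 1 array. Summed over the list they ranged from -0.79 to 0.42 for saline, -0.46 to -0.19 for ethanol, -0.63 to 0.40 for mephedrone and 0.58 to 0.86 for the combination. Their part in the Maoa result was not tested.

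Maob, in replicate order, was -0.096, 0.035 and -0.14 with saline and 0.053, -0.0010 and -0.071 with ethanol. It was 0.17, -0.066 and -0.080 in the mephedrone arrays and 0.0010, 0.066 and 0.23 in the combination arrays. Every group overlapped every other, and the 2 highest arrays of Maob were combination replicate 3 and mephedrone replicate 1. Its means were -0.066 ± 0.089 (SD, n = 3) for saline, -0.0065 ± 0.062 for ethanol, 0.0089 ± 0.14 for mephedrone and 0.098 ± 0.12 for the combination. The combination minus saline was 0.16 (SE 0.0779, 95% interval -0.0064 to 0.34, adjusted p = 0.431 in limma), and without combination replicate 3 it was 0.099 (SE 0.0776). In falling order, the highest Maob arrays were combination replicate 3, mephedrone replicate 1, combination replicate 2, ethanol replicate 1 and saline replicate 2. Their choroid plexus means were 1.66, 0.44, 0.45, 0.63 and 0.86, and the remaining arrays lay from -0.15 to -0.041. Astrocyte markers, of a cell type that makes Maob, had their highest means in combination replicate 3 (0.28) and ethanol replicate 1 (0.12). In mephedrone replicate 1 the astrocyte mean was 0.016. The part of either list in the Maob values was not tested.

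Of 25 listed genes 21 were measured, among them tryptophan hydroxylases, cofactor enzymes, other transporters and other degrading enzymes, and 0 of 21 passed in any of the 9 comparisons in limma. For mephedrone given against not given 1 gene was higher and 0 were lower at an unadjusted p under 0.05, against 8.36% and 4.28% of all genes. There 15 of 21 were above 0 against 53.2%, with a median of 0.017. Over the arrays given ethanol 2 were higher and 0 lower, against 3.44% and 1.13%, and 12 of 21 were above 0 against 58.8%, with a median of 0.012. For the combination against saline 3 of 21 were higher at an unadjusted p under 0.05, against 8.88% of all genes. Pts, which makes the cofactor tetrahydrobiopterin that Th and the tryptophan hydroxylases need, differed by 0.11 (SE 0.0377, adjusted p = 0.258) with mephedrone and by 0.11 (SE 0.0377, adjusted p = 0.941) with ethanol. With the combination Pts was higher than with saline by 0.22 (SE 0.0534, adjusted p = 0.162 in limma), the smallest adjusted p of these genes, which did not pass. Its group means were -0.16 ± 0.061 (SD, n = 3) for saline, -0.0024 ± 0.072 for ethanol, -0.0074 ± 0.076 for mephedrone and 0.060 ± 0.058 for the combination. All saline arrays of Pts lay below all ethanol and all combination arrays. These separations were found for 6.1% and 11.7% of all genes. Qdpr, which recycles that cofactor, was higher with the combination than with mephedrone by 0.24 (SE 0.105, adjusted p = 0.992), and combination replicate 3 was its highest array, at 0.47 against 0.10 and 0.070 in replicates 1 and 2.

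Aldh1a1, an aldehyde dehydrogenase found in dopamine neurons and elsewhere, had the largest difference of these genes, 0.52 for the combination against saline (SE 0.162, adjusted p = 0.254), and did not pass. Its combination arrays were 0.31, 0.072 and 0.83 in replicate order, the last again the highest of all. Its group means were -0.12 ± 0.084 (SD, n = 3) for saline, 0.034 ± 0.24 for ethanol, -0.017 ± 0.034 for mephedrone and 0.40 ± 0.39 for the combination. Hdc, which makes histamine, was lower with ethanol than with saline by a log2 difference of -0.11 (SE 0.0420, adjusted p = 0.997), and its interaction was 0.14 (SE 0.0594, adjusted p = 1). Sult1a1, a sulfotransferase of phenolic compounds, was 0.16 higher with mephedrone than with saline (SE 0.0662, adjusted p = 0.658), and its interaction was -0.18 (SE 0.0936, adjusted p = 1). Both used saline replicate 1, where Sult1a1 was -0.24 against -0.029 and -0.0093 in the other saline arrays. For mephedrone against ethanol the smallest p-values were those of Dbh, which turns dopamine into noradrenaline, at -0.050 (SE 0.0333, adjusted p = 0.926) and Hdc at 0.061 (SE 0.0420, adjusted p = 0.926).

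**Figure D4:**
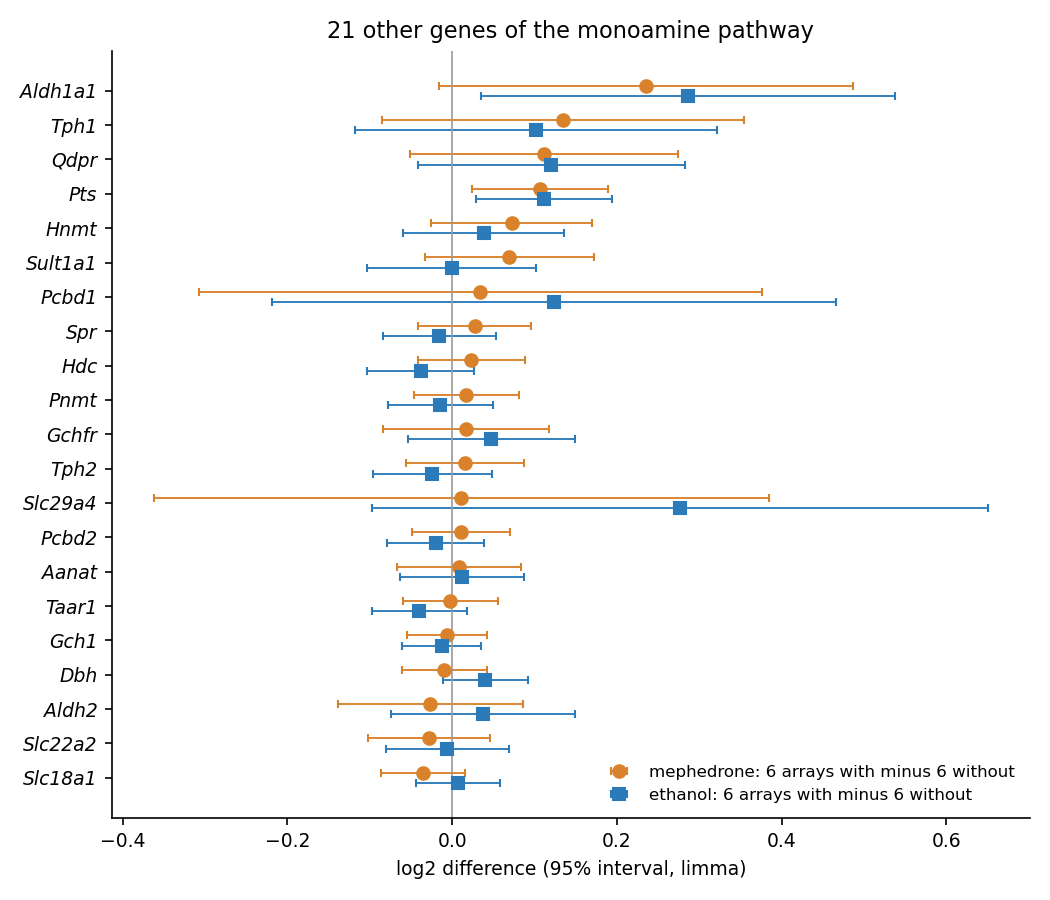
Log2 difference (horizontal axis) with its 95% interval from limma for 21 other genes of the monoamine pathway, for the arrays given mephedrone (circles) or ethanol (squares) against those without it, 6 against 6. Most intervals include 0, and those of Pts (both drugs) and Aldh1a1 (ethanol) lie above 0 before adjustment.

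Th, Ddc and Slc18a2 had the widest ranges of the members, and 18270 genes, small RNAs and unnamed transcripts left out, were searched for patterns like theirs by Pearson r over the 12 arrays, where both genes of a pair were read from the same RNA. The nearest were Sorcs1 (0.916), Mxd1 (0.910) and Tmem231 (0.897) for Th. They were Idh3a (0.944), Wdr61 (0.943) and Impa1 (0.940) for Ddc, and U2af2 (0.927), Phlda1 (0.919) and Tmem176a (0.912) for Slc18a2. These values were the highest of a long search and describe likeness only. Sorcs1 had its lowest value (-0.26) in combination replicate 3, where Th was next to lowest, and Idh3a, like Ddc, had its highest (0.22) in that array and its lowest (-0.23) in saline replicate 2. Phlda1, like Slc18a2, was highest (0.38) in ethanol replicate 1 and lowest (-0.25) in saline replicate 2.

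Markers of the cell bodies of monoamine neurons were read beside the members. The mean over 11 of 12 midbrain dopamine neuron markers lay between -0.096 in saline replicate 2 and 0.16 in combination replicate 3. Aldh1a1 belongs to that list and Dbh to the noradrenaline neuron list. The mean over 5 of 6 serotonin neuron markers lay between -0.099 and 0.11, and that over 4 of 5 noradrenaline neuron markers between -0.15 and 0.16. All 4 of the latter and 7 of the 11 dopamine neuron markers had a signal that stepped as numbers below 8 do on at least 1 array, as did 4 of the 5 serotonin neuron markers. The other 4 dopamine neuron markers and 1 serotonin neuron marker, Lmx1b, stepped as numbers between 8 and 16 do on every array.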

How the data were processed

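RNA was measured on 12 arrays, 3 in each of 4 treatment groups taken from the labels. The authors deposited log2 values made with RMA (background correction, quantile normalisation and probe summary), with genome build mm8, per the submitters' processing notes, and GeneSpring GX 7.3.1 is named in the series' design text. The deposited log2 table is centred so that each probe set has a median of 0 over the arrays, a step read from the values, as was the log2 scale. Of 28853 probe sets 21789 had 1 symbol, 1621 several and 5443 were not listed. Values were used as deposited, probe sets of a symbol were averaged, and limma 3.58.1 (R 4.3.3) fitted a mean for each group over the 12 arrays (8 residual and 3.43 prior degrees of freedom, two-sided). P-values were adjusted by Benjamini-Hochberg over 19938 genes, threshold 0.05. Errors beside differences are SE and beside means SD. The number of arrays limits the precision. No 2 arrays were identical.

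The members and lists were chosen with earlier results of these data known. The naming rule took all members, the pathway genes past the threshold or else the 2 with the smallest unadjusted p per comparison, and 3 nearest patterns for the 3 members of widest range. The fit was tested on simulated data. Same-numbered arrays of different groups deviated together about as often as differently numbered ones. Their r ran from -0.28 to 0.43, above 0.1 in 7 of 18 pairs. For different numbers r ran from -0.434 to 0.395, above 0.1 in 13 of 36 pairs. The numbers were therefore not taken to pair the arrays. Alternatives were quantile normalisation, array centring, single probe sets, array quality weights, the replicate block, only the arrays compared, a robust prior, leaving out the lowest 30% by spread, and leaving out arrays.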

Additional observations from a re-analysis of the deposited data

Results flagged for a closer look

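Slc18a2 had an ethanol difference of opposite sign without and with mephedrone. All 3 ethanol arrays lay above the saline mean, by 0.17 on average, and all 3 combination arrays lay below the mephedrone mean, by a mean difference of -0.06. The test of that difference, the interaction in limma, was -0.23 (SE 0.12, adjusted p = 1) and did not pass. With single arrays left out it ranged from -0.31 (without mephedrone replicate 2) to -0.16 (without ethanol replicate 1). The ethanol and saline arrays overlapped, as saline replicate 1 (0.099) lay above ethanol replicate 2 (0.018). All combination arrays of Slc18a2 lay within the range of the mephedrone arrays, and the combination minus mephedrone was -0.0006 without mephedrone replicate 1 and -0.14 without mephedrone replicate 2. Slc18a2 was the only member flagged for such opposite signs, and the share of all genes that would be flagged was not counted.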

How the results depend on the processing

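Over 21 alternatives, 1 call of a member was made. With array quality weights 1 member, Maoa, passed for mephedrone given against not given (0.16, SE 0.0371, adjusted p = 0.0486 in limma, against 0.128 with equal weights). Over its 20 alternatives the Maoa difference kept its sign, from 0.13 without ethanol replicate 2 to 0.19 without saline replicate 3, with adjusted p from 0.0486 to 0.282. No other count of members or of pathway genes moved from 0. With the replicate number as a replicate block, 0 members passed and the Maoa difference was 0.16 (SE 0.0395, adjusted p = 0.145). Of 1488 values of members under alternatives, 1404 kept their sign and 84 changed it, none of them a value with an unadjusted p under 0.05 in the fit reported. The count of all genes called for mephedrone given against not given moved from 23 to between 2 (without saline replicate 1) and 356 (array quality weights). That for the combination against ethanol moved from 5 to between 0 and 37, and that for the combination against saline from 2 to between 0 and 6. With 3 arrays per group, lack of a call does not show that a gene was unchanged.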
